A study of Danio rerio with 18 samples.

Results

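The genes described here are those of heat shock and protein folding on an Affymetrix zebrafish array: every gene whose platform symbol begins with hsp, dnaj, pdia, calr or canx, or with cct followed by a digit of the chaperonin series, without the cytosolic Hsp90 genes hsp90ab1, hsp90aa1.1 and hsp90aa1.2. There were 63 of them among 8793 named genes, and where several probe sets read a gene, the one with the highest mean level was used. They fall into 10 cytosolic Hsp70 proteins and their exchange factors, 16 cytosolic and nuclear J-domain proteins, 7 subunits of the CCT chaperonin, 3 small heat shock proteins, 8 mitochondrial and 19 endoplasmic reticulum (ER) proteins. RNA came from regenerating caudal fins of adult male zebrafish of the AB strain. The dioxin TCDD, which binds and activates the aryl hydrocarbon receptor, was injected in liposomes at 50 ng/g body weight on the day of amputation, and fins were taken at 1, 3 or 5 days post amputation (dpa). The vehicle fish received the liposomes alone and were sampled on the same days. All 6 groups therefore share amputation and liposome injection, and each held 3 arrays, each of fins pooled from 10 fish, so that every error below is the spread between pools. Uncut fins were not analysed here. The tissue also held some of the old fin on the body side of the cut.

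Molecular chaperones keep unfolded proteins from aggregating and help them fold. Hsp70 proteins bind exposed stretches of a client, J-domain proteins bring clients to them and start ATP hydrolysis, and exchange factors let the client go. The ring-shaped CCT folds actin and tubulin in the cytosol, and Hsp60 with its lid Hsp10 does like work in mitochondria. In the ER, the Hsp70 called BiP, the lectins calnexin and calreticulin and the protein disulfide isomerases fold secreted and membrane proteins. The heat shock response, the unfolded protein response of the ER and that of mitochondria each raise their own compartment's chaperones when clients accumulate. In zebrafish, a mutant of hspd1 showed that Hsp60 is needed for fins to regenerate.

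The values are intensities made by the authors with GCRMA, analysed as log2(intensity + 1). The median intensity of an array ran from 75.1 to 84.1, and the number of arrays limits the precision. As a measure of RNA integrity, the GAPDH control sets gave a log2 difference between 3' and 5' ends of 1.38 to 4.06, highest on the letter C arrays of 3 dpa. The actin control sets gave 1.45 to 2.32 and did not set those arrays apart, with 2.10 on the TCDD and 1.63 on the vehicle array. Of 9 epidermal markers 8 were measured and none lay under the 40th percentile of probe set means (log2 5.44). Among the 63 genes, 10 had a mean level under that percentile, among them both hspb8 and hspb6, so that 1 of the 3 small heat shock genes lay above it. Replicate letters were found to pair the arrays of a day, and the fit given here holds no letter term. In pooled tissue, fewer cells of a type and less RNA per cell cannot be told apart.

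**Figure D1:**
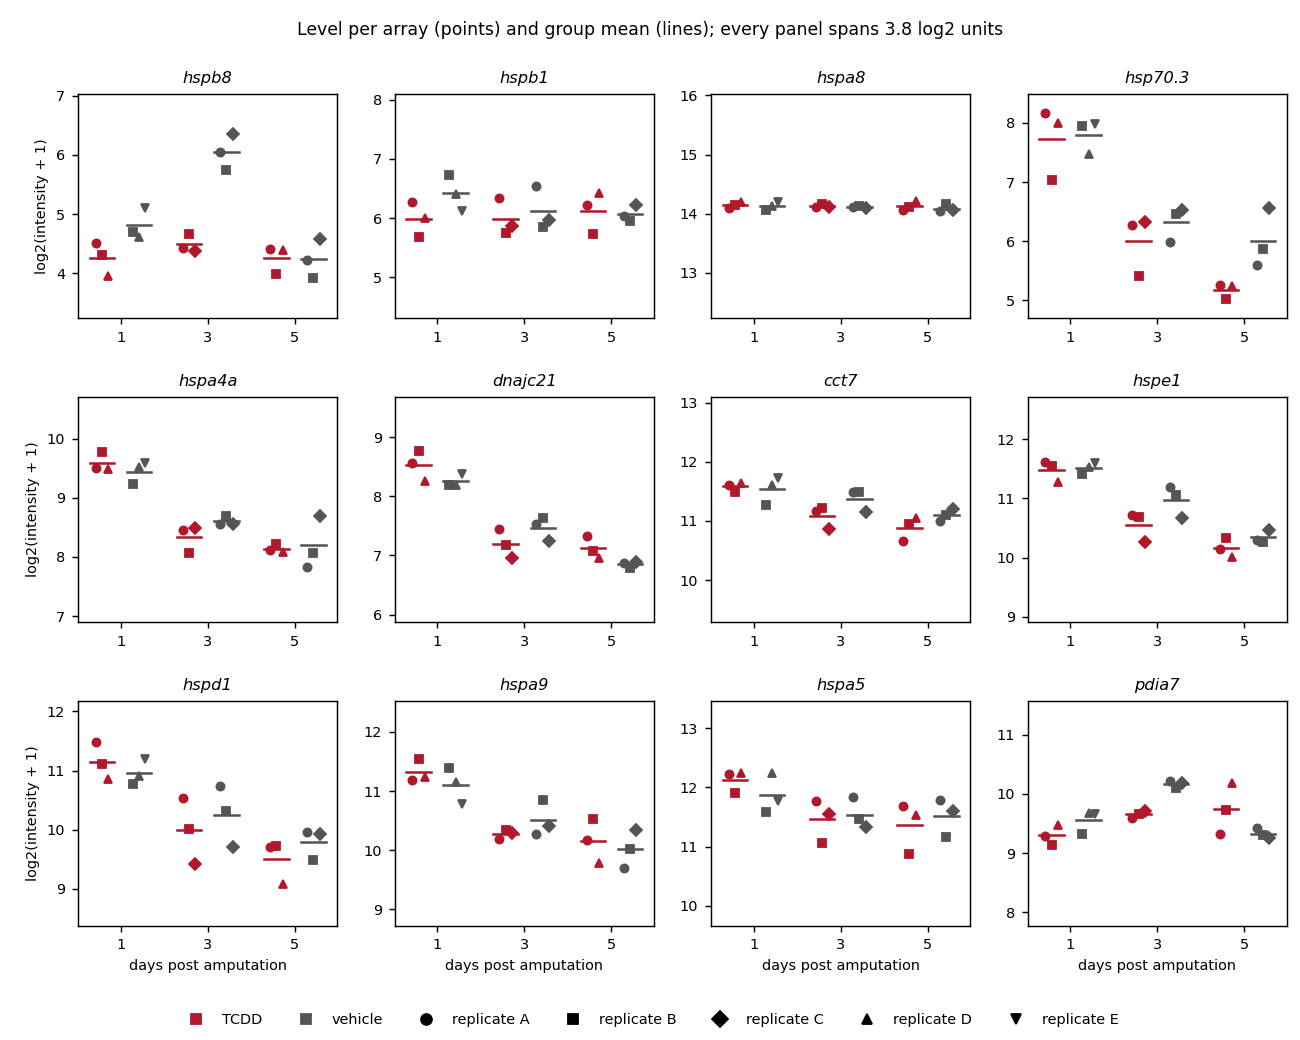
Level of 12 genes on each array, as log2(intensity + 1), by days post amputation. Points are arrays of 10 pooled fish (red, TCDD; grey, vehicle; the marker gives the replicate letter) and lines are means of 3 arrays; each panel spans the same number of log2 units. hspb8 stands higher on the 3 vehicle arrays of 3 dpa than on every other array, hsp70.3, hspa4a, dnajc21, hspe1, hspd1 and hspa9 are highest at 1 dpa in both exposures, and hspa8 lies between 14.0 and 14.2 throughout.

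Between TCDD and vehicle fins 1 of the 63 genes passed an adjusted p of 0.05 in limma, the small heat shock gene hspb8. It was lower in TCDD than in vehicle fins at 3 dpa, by 1.56 on the log2(intensity + 1) scale. Its TCDD levels were dim, and with a pseudocount of 16 the difference was -1.12. At 1 dpa none of the 63 passed in limma at an adjusted p under 0.05, where 0.245% of the 15502 probe sets did (0.161% higher and 0.0839% lower with TCDD). At 3 dpa 1 of 63 passed, where 1.11% of all probe sets did (0.381% higher, 0.729% lower). At 5 dpa none of 63 passed, where 1.64% of all did (0.768% higher, 0.877% lower). In the mean of the 3 days hspb8 was again the only one of the 63 to pass, against 3.78% of all probe sets (1.7% higher, 2.08% lower). At an unadjusted p under 0.05 there were 3, 5 and 7 of the 63 at 1, 3 and 5 dpa and 5 in the mean of the days, or 4.76%, 7.94%, 11.1% and 7.94%, beside 8.01%, 10.8%, 17.6% and 15.6% of all probe sets. An F test asked whether the TCDD effect varied with the day. None of the 63 passed it, which 0.0516% of probe sets passed. In it 7 of the 63 had an unadjusted p under 0.05, or 11.1%, beside 12.2% of all probe sets. The median log2 difference over the 63 was 0.10 at 1 dpa, -0.10 at 3 dpa and 0.02 at 5 dpa, beside 0.05, 0.04 and -0.04 over all probe sets.

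**Figure D2:**
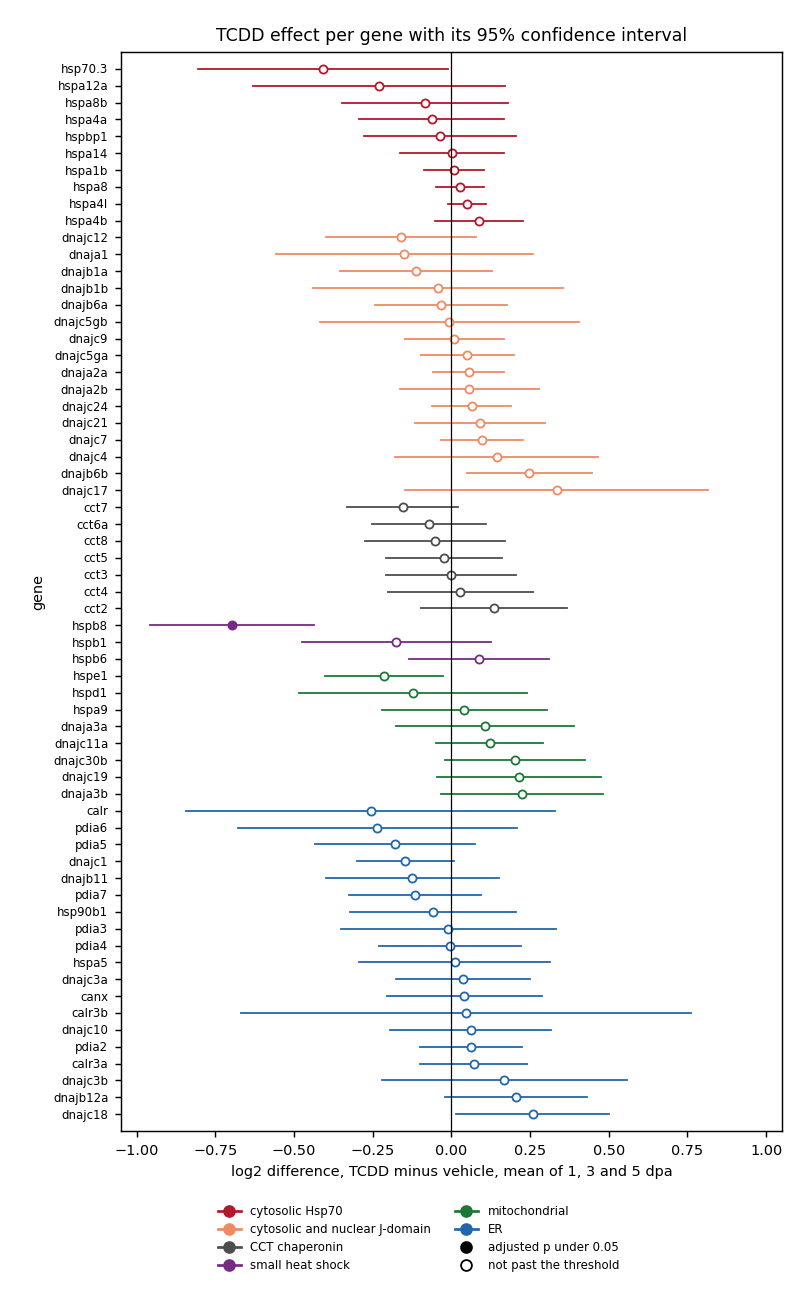
Log2 difference, TCDD minus vehicle, of each of the 63 genes as the mean of 1, 3 and 5 dpa, with its 95% confidence interval from limma; colours give the sub-list, and a filled point marks an adjusted p under 0.05. hspb8, at -0.70, is the filled point, and 53 of the 63 intervals lie within 0.5 of 0.

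Missing the threshold does not show that levels were alike, so the width of each interval matters. In the mean of the 3 days, the 95% interval of the TCDD difference lay within a log2 difference of 0.5 on either side of 0 for 53 of the 63 genes and within 1 for all 63. On a single day the intervals were wider, with bounds a median of 0.40 from the estimate against 0.23 for the mean. They lay within 0.5 for 28, 24 and 24 genes at 1, 3 and 5 dpa, and within 1 for 60, 55 and 58. These counts include the 10 genes under the 40th percentile, whose differences the log2(intensity + 1) scale understates. A narrow interval near 0 says little for them. The same counts were not made for dim genes apart or over all probe sets.

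hspb8 encodes Hsp22, a small heat shock protein that in mammals works with the co-chaperone BAG3 in the removal of misfolded proteins by autophagy. At 1 dpa its log2 level was 4.52, 4.31 and 3.96 in TCDD fins and 4.70, 4.62 and 5.10 in vehicle fins. At 3 dpa it was 4.43, 4.66 and 4.38 in TCDD fins, against 6.06, 5.74 and 6.35 in vehicle fins. At 5 dpa it was 4.41, 3.98 and 4.39 in TCDD fins and 4.22, 3.93 and 4.59 in vehicle fins. The 3 vehicle arrays of 3 dpa thus stood above the other 15, the groups did not overlap at 1 and 3 dpa, and they overlapped at 5 dpa. The difference at 3 dpa was -1.56 ± 0.21 (log2, SE, 95% interval -2.01 to -1.11, adjusted p = 0.0016 in limma), and in the mean of the days it was -0.70 ± 0.12 (adjusted p = 0.0037). At 1 dpa it was -0.55 ± 0.21 (adjusted p = 0.53) and at 5 dpa 0.02 ± 0.21 (adjusted p = 0.97), while the F test between days gave an adjusted p of 0.14.

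In TCDD fins the step of hspb8 between 1 and 3 dpa was 0.22 ± 0.21 and that between 3 and 5 dpa -0.23 ± 0.21 (adjusted p = 0.61 and 0.92). In vehicle fins, hspb8 rose by 1.24 ± 0.21 on the first step (adjusted p = 0.0027) and fell by 1.81 ± 0.21 on the second (adjusted p = 0.0029). All 4 calls of hspb8, at 3 dpa, in the mean of the days and on both vehicle steps, held with each array left out in turn, with an adjusted p of at most 0.021. That at 3 dpa was lost without both letter C arrays of that day (-1.36, adjusted p = 0.052), and those of the vehicle steps with only the compared groups in the fit (adjusted p = 0.075 and 0.18). The levels outside vehicle fins at 3 dpa lie under the 40th percentile, where background correction and pseudocount weigh most, and a filter on dim probe sets removes the gene. Osteoblast markers, 5 of 7 measured, had summed log2 levels of 11.3 to 12.5 in TCDD fins and 13.5 to 13.9 in vehicle fins at 3 dpa, with 2 of the 5 under the 40th percentile. Blastema markers, 7 of 8 measured and none under it, summed to 14.0 to 14.1 in TCDD fins and 14.5 to 14.7 in vehicle fins. At 5 dpa, where hspb8 overlapped between exposures, osteoblast markers summed to 12.8 to 13.8 in TCDD fins and 14.1 to 14.2 in vehicle fins. Blastema markers summed to 14.3 to 14.9 and 14.8 to 15.1 on that day. At 1 dpa osteoblast sums were 8.58 to 9.42 and 9.29 to 10.1, and blastema sums 13.4 to 13.8 and 13.6 to 13.9. Such sums follow the brightest markers. Taken singly at 3 dpa, 1 of 5 osteoblast and 1 of 7 blastema markers passed, both lower with TCDD, beside 0.729% of all probe sets. Their median log2 differences were -0.19 and -0.20, with 3 and 6 markers below 0 and 2 and 1 above. Erythrocyte markers, 4 of 5 measured, summed to 12.2 to 12.6 in TCDD and 11.3 to 12.1 in vehicle fins at 3 dpa, and overlapped at 5 dpa. The part of these cells in the hspb8 difference was not tested. Of 14 skeletal muscle markers measured, 12 lay under the 40th percentile, with summed levels of 7.61 to 8.15 in TCDD and 7.50 to 7.96 in vehicle fins at 3 dpa.

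hspb1, which encodes Hsp27, a regulator of actin and a chaperone of damaged proteins, passed in no comparison. Its log2 level averaged 5.98 ± 0.29, 5.98 ± 0.31 and 6.13 ± 0.35 in TCDD fins at 1, 3 and 5 dpa and 6.42 ± 0.30, 6.13 ± 0.37 and 6.07 ± 0.13 in vehicle fins (SD, n = 3). Groups overlapped on all 3 days. hspb6, which encodes Hsp20, was dim, and its TCDD difference in the mean of the days was 0.09 ± 0.10 (adjusted p = 0.75).

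No cytosolic Hsp70 gene passed for TCDD. hspa8, the constitutive Hsp70 that folds new proteins in unstressed cells, lay between 14.0 and 14.2 on all 18 arrays, with 14.10, 14.14 and 14.20 in TCDD fins and 14.07, 14.12 and 14.19 in vehicle fins at 1 dpa. Its TCDD difference in the mean of the days was 0.03 ± 0.04 (95% interval -0.05 to 0.10). hsp70.3, a stress-inducible Hsp70, had log2 levels of 5.25, 5.03 and 5.23 in TCDD fins at 5 dpa, against 5.59, 5.86 and 6.55 in vehicle fins. The groups did not overlap, and the difference of -0.83 ± 0.32 did not pass (95% interval -1.52 to -0.15, adjusted p = 0.20). At 1 dpa the difference was -0.07 ± 0.32 and at 3 dpa -0.32 ± 0.32. A probe set that the platform gives to 3 hsp70 symbols, and that is no member for that reason, had 5.51, 4.64 and 5.39 in TCDD fins and 6.01, 6.48 and 7.37 in vehicle fins at 5 dpa. Its difference was -1.44 ± 0.35 (adjusted p = 0.052). Copies of hsp70 are close in sequence, so that these sets may share signal and are no independent evidence of each other.

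Of the ER and mitochondrial genes none passed for TCDD. Some groups did not overlap, which with 3 arrays a side also occurs among unchanged genes. Over all 63 genes, the TCDD arrays all lay above the vehicle arrays for 2, 3 and 6 at 1, 3 and 5 dpa. They all lay below for 1, 6 and 4. The share over all probe sets was not counted, so that these separations are no evidence of an effect. pdia7, a disulfide isomerase, had 9.60, 9.65 and 9.71 in TCDD fins at 3 dpa, against 10.22, 10.10 and 10.18 in vehicle fins, without overlap. The difference was -0.51 ± 0.17 (adjusted p = 0.23). A replicate block for the letter gave pdia7 an adjusted p of 0.049, and with it 2 of the 63 genes (hspb8 and pdia7) passed, where 3.15% of all probe sets did (1.28% higher, 1.87% lower), a share like that of the members. hspe1, which encodes Hsp10, was 0.42 lower on the log2 scale (10.73, 10.68 and 10.26 in TCDD fins, 11.20, 11.05 and 10.67 in vehicle fins, adjusted p = 0.29, and 0.14 in the letter block). The groups overlapped, while in each of the 3 letter pairs the TCDD array was the lower. At 5 dpa dnajc19, a J-domain protein of the mitochondrial import motor, had 7.22, 7.17 and 7.13 in TCDD fins, against 6.45, 6.92 and 6.24 in vehicle fins, a difference of 0.64 ± 0.21 (adjusted p = 0.14).

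More of these genes passed between 1 and 5 dpa, in either exposure, than between TCDD and vehicle fins on any day. From 1 to 5 dpa 24 of the 63 fell and none rose in TCDD fins, and 19 fell and none rose in vehicle fins. In TCDD fins 38.1% of the genes fell, where 11.3% of all probe sets fell, 7.81% rose and 19.1% passed in all. In vehicle fins 30.2% fell, where 10.1% of all probe sets fell, 7.22% rose and 17.3% passed in all. The median log2 difference of the 63 was -0.43 in TCDD fins and -0.35 in vehicle fins, beside -0.08 and 0.03 over all probe sets. Group means were highest at 1 dpa for 49 of the 63 genes in TCDD fins and for 44 in vehicle fins. They were lowest at 5 dpa for 40 and 48. The order of days was not counted over all probe sets, so it is not shown to be particular to these genes. The difference from 1 to 5 dpa was below 0 for 55 of the 63 in TCDD fins and 52 in vehicle fins. Of all 15502 probe sets it was below 0 for 9359 and 7002.

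**Figure D3:**
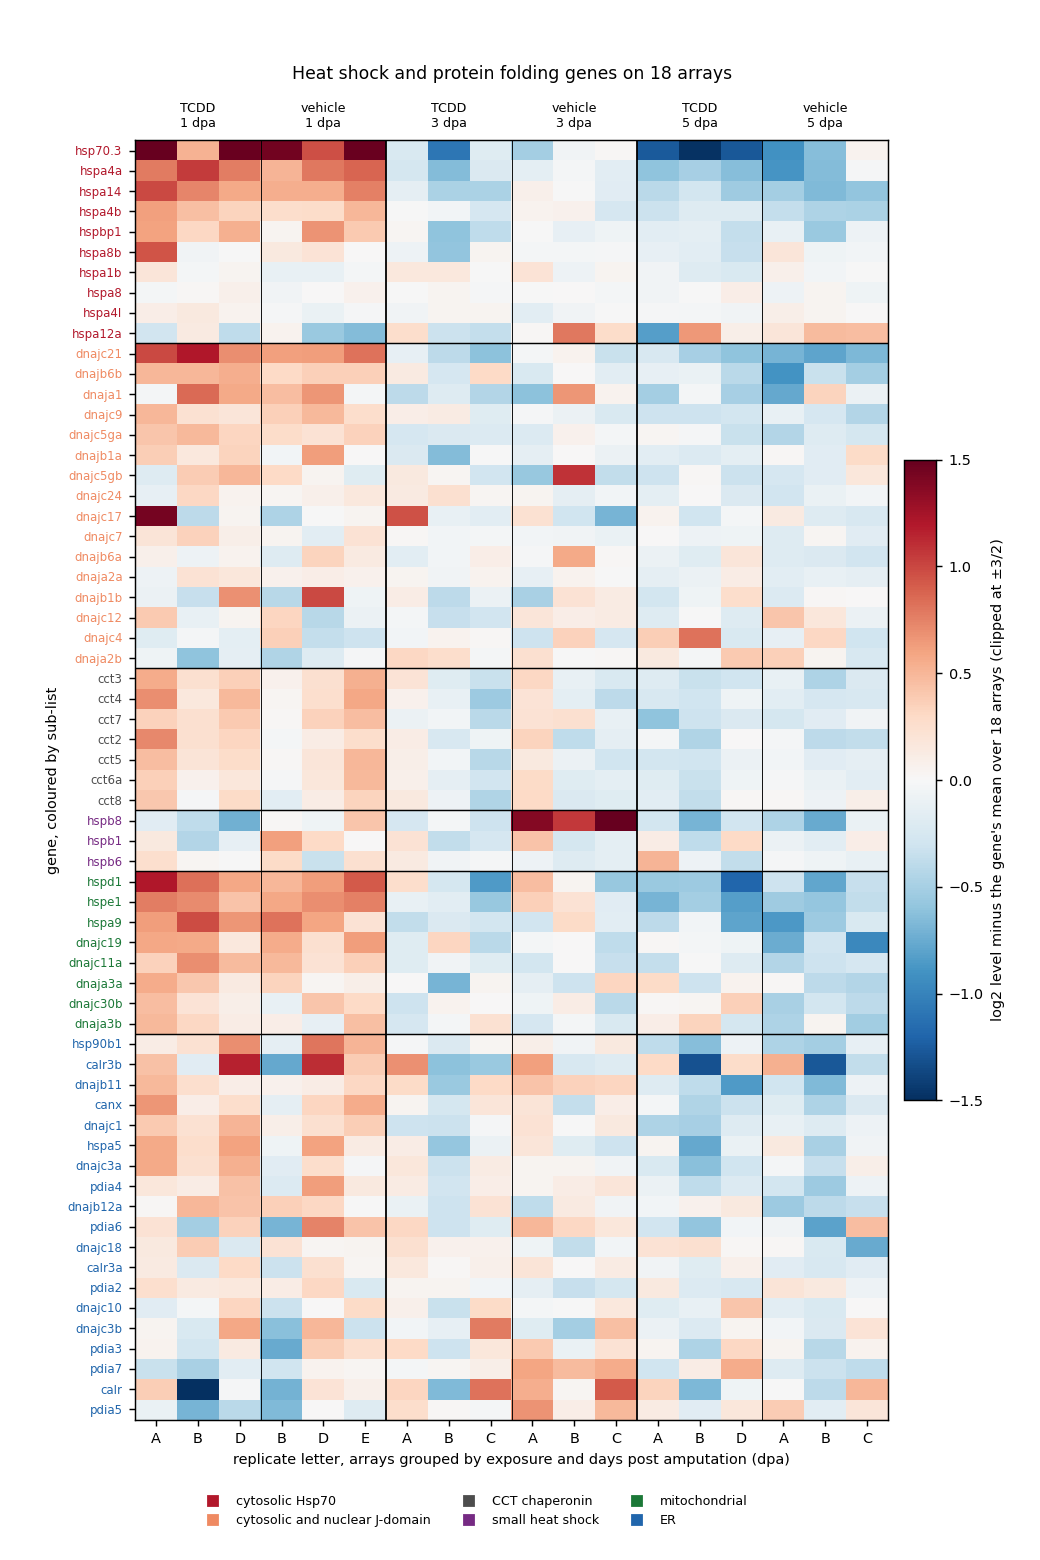
Log2 level of the 63 genes (one per line, coloured and grouped by sub-list, sorted within each by the mean change from 1 to 5 dpa) on 18 arrays, less the gene's mean over all arrays; red is above and blue below that mean, clipped at 1.5. Upper lines of the Hsp70, J-domain and mitochondrial blocks are red at 1 dpa in both exposures, and the ER block is bluer on the letter B arrays.

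The genes that fell overlapped between exposures. Of the 24 that fell in TCDD fins and the 19 that fell in vehicle fins, 16 were in both. That is 66.7% of those in TCDD and 84.2% of those in vehicle fins. The same overlap over all probe sets was not counted, so it is not shown to be particular to these genes. Since the difference in course between exposures passed the F test for none of the 63, the 8 genes that passed in TCDD fins alone and the 3 in vehicle fins alone are not shown to differ. Of the falls, 15 of 24 in TCDD fins and 12 of 19 in vehicle fins held with each array left out in turn. Without vehicle replicate B of 5 dpa the 19 became 12, and without TCDD replicate A of 1 dpa the 24 became 16. TCDD arrays of 1 and 5 dpa carry the same letters, A, B and D, whereas vehicle arrays of those days share only B, so the vehicle course compares partly different letters. With the letter as a replicate block, 33 fell and 3 rose in TCDD fins, where 16.2% of all probe sets fell, 11.7% rose and 27.9% passed in all. In vehicle fins 18 fell and 1 rose in the block, where 8.44% of all probe sets fell, 6.46% rose and 14.9% passed in all.

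**Figure D4:**
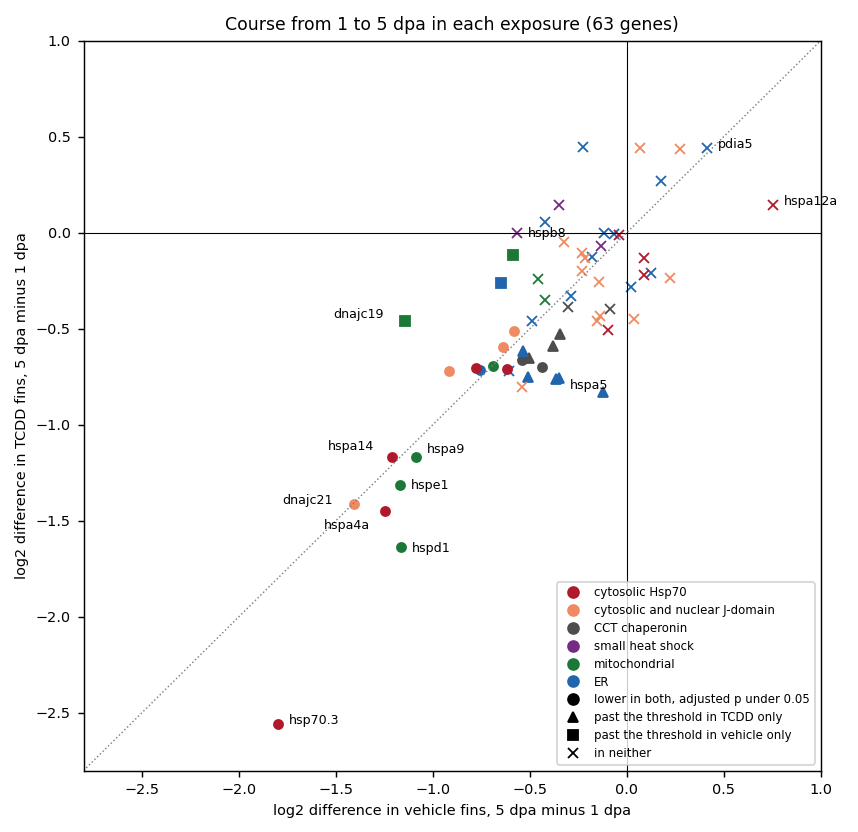
Log2 difference between 1 and 5 dpa of the 63 genes in TCDD fins (vertical axis) and vehicle fins (horizontal axis), with colours for the sub-list and shapes for the fits in which a gene passed; the dotted line marks equal change. Most points lie in the lower left, hsp70.3 lies farthest down at -2.56 in TCDD and -1.80 in vehicle fins, and no gene passed above 0.

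Blastema markers rose over the same days, 5 of 7 in TCDD fins and 6 of 7 in vehicle fins, where the seventh fell, and so did 2 of 5 osteoblast markers in each exposure. Epidermal markers fell for 1 of 8 in TCDD fins and 2 of 8 in vehicle fins, and no myeloid marker of 7 passed. Of 4 erythrocyte markers measured, none passed in TCDD fins and 1 rose in vehicle fins. Their summed log2 level was 11.64 to 12.82 at 1 dpa and 12.03 to 12.57 at 5 dpa in TCDD fins, and 10.92 to 12.02 and 12.28 to 12.42, without overlap, in vehicle fins. The letter block changed several of these marker counts. In vehicle fins 1 epidermal marker was higher and none lower, 3 of 7 myeloid were lower and 3 of 4 erythrocyte higher. Of all probe sets 8.44% were lower and 6.46% higher there. In TCDD fins 2 myeloid markers were higher and 1 osteoblast marker lower, beside 11.7% and 16.2% of all. The GAPDH 3' minus 5' difference was 1.50 to 2.95, 1.74 to 4.06 and 1.69 to 2.42 on the TCDD arrays of 1, 3 and 5 dpa, and 1.52 to 3.03, 1.85 to 3.38 and 1.38 to 2.26 on the vehicle arrays. That of actin was 1.45 to 2.21 at 1 dpa and 1.61 to 1.66 at 5 dpa on the TCDD arrays. On the vehicle arrays it was 1.58 to 2.32 and 1.87 to 2.24. The share of old fin in the tissue was not measured here. The part of cell makeup and RNA quality in the falls was not tested.

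The median steps between days differed in size in TCDD fins and were alike in vehicle fins, without a test between steps. The median log2 difference of the 63 was -0.33 from 1 to 3 dpa and -0.08 from 3 to 5 dpa in TCDD fins. In vehicle fins it was -0.19 and -0.20. Over all probe sets these medians were -0.02 and -0.04 in TCDD fins, and -0.02 and 0.04 in vehicle fins. From 1 to 3 dpa 14 of the 63 fell and none rose in TCDD fins (22.2%, where 6.04% of all probe sets fell, 4.73% rose and 10.8% passed in all). In vehicle fins 6 fell and 2 rose over that step, where 2.03% of all probe sets fell, 3.48% rose and 5.51% passed in all. With the letter as a replicate block the TCDD count was 22 lower and 3 higher, where 8.02% of all probe sets fell, 6.73% rose and 14.8% passed in all. The vehicle count in that block was 8 lower and 4 higher, where 381 and 560 of all 15502 probe sets were. The vehicle count rests on single arrays: without replicate E of 1 dpa, 1 of the 8 calls was left, without replicate C of 3 dpa 2, without replicate A of 3 dpa 3, and without replicate B or D of 1 dpa 5. From 3 to 5 dpa no gene of the 63 passed in TCDD fins, where 0.0129% of all probe sets did, each of them higher. At an unadjusted p under 0.05 there were 7 of the 63, or 11.1%, beside 6.63% of all probe sets. In vehicle fins hspb8 alone passed, where 0.342% of all probe sets did (0.142% higher, 0.2% lower). There 16 of the 63 had an unadjusted p under 0.05, or 25.4%, beside 12.1% of all probe sets. With the letter as a replicate block 6 passed, all lower, where 2.08% of all probe sets did (0.671% higher, 1.41% lower).

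Cytosolic Hsp70 genes fell in 5 of 10 cases in both courses, and they were hsp70.3, hspa4a, hspa4b, hspa14 and hspbp1. Of all probe sets 11.3% fell in TCDD fins and 10.1% in vehicle fins. In the letter block 6 of the 10 fell in TCDD fins and 4 in vehicle fins, where 16.2% and 8.44% of all probe sets did. hsp70.3 had log2 levels of 8.16, 7.03 and 7.99 at 1 dpa, 6.27, 5.42 and 6.33 at 3 dpa and 5.25, 5.03 and 5.23 at 5 dpa in TCDD fins. In vehicle fins it had 7.95, 7.47 and 7.99 at 1 dpa, 5.99, 6.46 and 6.52 at 3 dpa and 5.59, 5.86 and 6.55 at 5 dpa. Every array of 1 dpa was above every later one, and the fall from 1 to 5 dpa was 5.89-fold in TCDD fins (-2.56 ± 0.32, adjusted p = 0.00013) and 3.48-fold in vehicle fins (-1.80 ± 0.32, adjusted p = 0.0014). The probe set shared by 3 hsp70 symbols fell by 2.86 ± 0.35 in TCDD fins and by 1.57 ± 0.35 in vehicle fins (adjusted p = 9.7e-05 and 0.0060). On the step from 1 to 3 dpa, hsp70.3 fell by 1.72 in TCDD fins and by 1.48 in vehicle fins (adjusted p = 0.0031 and 0.014). The vehicle call was lost without replicate E of 1 dpa or A of 3 dpa, with an adjusted p of up to 0.064.

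hspa4a, an Hsp110-type exchange factor of Hsp70, had 9.49, 9.77 and 9.48 at 1 dpa and 8.11, 8.21 and 8.07 at 5 dpa in TCDD fins. In vehicle fins it had 9.22, 9.51 and 9.59 at 1 dpa and 7.83, 8.07 and 8.69 at 5 dpa. The days did not overlap in either exposure, and the falls were 1.45 ± 0.19 in TCDD fins and 1.24 ± 0.19 in vehicle fins (adjusted p = 0.00015 and 0.00041). hspa14, a ribosome-bound Hsp70 in mammals, fell by 1.17 ± 0.14 in TCDD fins and by 1.21 ± 0.14 in vehicle fins (adjusted p = 6.8e-05 and 5.6e-05). hspa8 differed between these days by -0.01 ± 0.06 in TCDD fins and by -0.04 ± 0.06 in vehicle fins. A second probe set of hspbp1, an exchange factor, did not pass in either course (-0.84 and -0.56, adjusted p = 0.077 and 0.27), while the one used did (-0.71 and -0.62, adjusted p = 0.020 and 0.041). Its TCDD call was lost without TCDD replicate A or D of 1 dpa or D of 5 dpa (adjusted p up to 0.078). Its vehicle call was lost with any 1 of 9 arrays left out (adjusted p up to 0.18) and in the letter block (0.056).

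Of the 16 cytosolic and nuclear J-domain genes 4 fell in each course, and the same 4 genes did: dnajc21, dnajb6b, dnajc9 and dnajc5ga. This share of 25% stands beside 11.3% of all probe sets that fell in TCDD fins and 10.1% in vehicle fins. In the letter block 6 fell and 1 rose in TCDD fins, where 16.2% and 11.7% of all probe sets did. In vehicle fins 4 fell and 1 rose in the block, where 8.44% and 6.46% did. dnajc21 takes part in the making of the large ribosomal subunit. Its log2 level was 8.56, 8.77 and 8.26 at 1 dpa and 7.33, 7.07 and 6.96 at 5 dpa in TCDD fins, and 8.19, 8.20 and 8.38 at 1 dpa and 6.88, 6.78 and 6.89 at 5 dpa in vehicle fins. It fell by 1.41 ± 0.17 in both (adjusted p = 8.2e-05 and 7.9e-05), and in TCDD fins 1.33 of that fall came by 3 dpa. dnajb6b, which hinders protein aggregation, fell by 0.72 ± 0.16 in TCDD fins and by 0.92 ± 0.16 in vehicle fins (adjusted p = 0.0061 and 0.0013). dnajc9, a co-chaperone of histones, fell by 0.60 ± 0.13 and 0.64 ± 0.13 (adjusted p = 0.0042 and 0.0028), and dnajc5ga, of the cysteine string protein family, by 0.51 ± 0.12 and 0.58 ± 0.12 (adjusted p = 0.0077 and 0.0037). These 4 calls held in both courses with each array left out. dnaja2a, a class A partner of Hsp70, differed by -0.13 ± 0.09 in TCDD fins and by -0.22 ± 0.09 in vehicle fins (adjusted p = 0.33 and 0.13).

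CCT subunits fell in 5 of 7 cases in TCDD fins (cct2, cct3, cct4, cct5 and cct7) and in 2 of 7 in vehicle fins (cct3 and cct7), and all 7 had a mean below that of 1 dpa in both. Of all probe sets 11.3% fell in TCDD fins and 10.1% in vehicle fins. In the letter block all 7 fell in TCDD fins and 1 in vehicle fins, where 16.2% and 8.44% of all probe sets did. cct7 had 11.61, 11.50 and 11.65 at 1 dpa and 10.65, 10.95 and 11.05 at 5 dpa in TCDD fins. In vehicle fins it had 11.28, 11.60 and 11.73 at 1 dpa and 11.00, 11.09 and 11.21 at 5 dpa. The days did not overlap in either exposure, with falls of 0.70 ± 0.14 in TCDD fins and 0.44 ± 0.14 in vehicle fins (adjusted p = 0.0034 and 0.049). The TCDD call held with each array left out, whereas the vehicle call was lost with any 1 of 13 arrays left out (adjusted p up to 0.19) and in the letter block (-0.16, adjusted p = 0.55).

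cct3 fell by 0.66 ± 0.17 in TCDD fins and by 0.54 ± 0.17 in vehicle fins (adjusted p = 0.013 and 0.038). These calls were lost without TCDD replicate A of 1 dpa (adjusted p = 0.055), and without vehicle replicate D or E of 1 dpa or B or C of 5 dpa (adjusted p up to 0.17). cct4 fell by 0.65 ± 0.19 in TCDD fins (adjusted p = 0.023, up to 0.10 without replicate A or D of 1 dpa or A or B of 5 dpa), beside a difference of -0.50 ± 0.19 in vehicle fins (adjusted p = 0.082). cct6a differed by -0.39 ± 0.15 and -0.30 ± 0.15 (adjusted p = 0.076 and 0.18, the first 0.0048 in the letter block). A second, dim probe set of cct2 had a difference of -0.32 in TCDD fins (adjusted p = 0.18), against -0.59 for the one used (adjusted p = 0.040, up to 0.16 without replicate A or D of 1 dpa or B or D of 5 dpa). cct5 was lost without replicate A of 1 dpa or A or B of 5 dpa (adjusted p up to 0.085).

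Mitochondrial genes fell in 4 of 8 cases in TCDD fins and in 6 of 8 in vehicle fins, and hspd1, hspe1, hspa9 and dnajc11a fell in both. Of all probe sets 11.3% fell in TCDD fins and 10.1% in vehicle fins. In the letter block 5 of the 8 fell in each exposure, where 16.2% and 8.44% of all probe sets did. The vehicle count included dnajc30b, which lay under the 40th percentile (-0.59, adjusted p = 0.035). Its call was lost with any 1 of 5 arrays left out and in the letter block. hspd1, which encodes Hsp60, had 11.47, 11.11 and 10.85 at 1 dpa, 10.53, 10.01 and 9.42 at 3 dpa and 9.71, 9.73 and 9.08 at 5 dpa in TCDD fins. In vehicle fins it had 10.78, 10.90 and 11.20 at 1 dpa, 10.74, 10.32 and 9.71 at 3 dpa and 9.97, 9.49 and 9.92 at 5 dpa. The arrays of 1 dpa were above those of 5 dpa in both exposures, and the falls were 1.63 ± 0.29 in TCDD fins and 1.16 ± 0.29 in vehicle fins (adjusted p = 0.0014 and 0.013). The vehicle call of hspd1 was lost without replicate E of 1 dpa or B of 5 dpa, with an adjusted p of up to 0.059.

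hspe1 encodes the lid of the same chamber, and in the RefSeq gene table no gene lies between hspd1 and hspe1. hspe1 had 11.61, 11.54 and 11.27 at 1 dpa and 10.14, 10.32 and 10.01 at 5 dpa in TCDD fins, against 11.41, 11.54 and 11.60 at 1 dpa and 10.31, 10.26 and 10.47 at 5 dpa in vehicle fins. Every array of 1 dpa stood above every array of 5 dpa, with falls of 1.31 ± 0.15 in TCDD fins and 1.17 ± 0.15 in vehicle fins (adjusted p = 7.2e-05 and 0.00014). hspa9, the mitochondrial Hsp70, fell by 1.17 ± 0.21 in TCDD fins and by 1.09 ± 0.21 in vehicle fins (adjusted p = 0.0015 and 0.0026). A second probe set of hspa9 had differences of -1.18 and -0.96 that did not pass (adjusted p = 0.11 and 0.23). dnajc11a, of the outer membrane and cristae, fell by 0.69 ± 0.14 in both (adjusted p = 0.0028 and 0.0031). dnajc19 differed by -0.46 ± 0.21 in TCDD fins (adjusted p = 0.14, and 0.031 in the letter block) and fell by 1.14 ± 0.21 in vehicle fins (adjusted p = 0.0018).

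ER genes fell in 6 of 19 cases in TCDD fins and in 2 of 19 in vehicle fins, and hsp90b1 fell in both. These shares of 31.6% and 10.5% stand beside 11.3% and 10.1% of all probe sets that fell, so that the vehicle share is near that of all probe sets. In the letter block 9 fell and 2 rose in TCDD fins, where 16.2% and 11.7% of all probe sets did, and 4 fell in vehicle fins, where 8.44% did. hsp90b1, the ER form of Hsp90, fell by 0.71 ± 0.21 in TCDD fins and by 0.76 ± 0.21 in vehicle fins (adjusted p = 0.030 and 0.023). These calls were lost without TCDD replicate D of 1 dpa or A or B of 5 dpa, and without vehicle replicate D or E of 1 dpa or A or B of 5 dpa (adjusted p up to 0.13). hspa5, which encodes BiP, had 12.22, 11.91 and 12.25 at 1 dpa and 11.69, 10.88 and 11.54 at 5 dpa in TCDD fins, against 11.58, 12.25 and 11.77 at 1 dpa and 11.80, 11.16 and 11.60 at 5 dpa in vehicle fins. The days overlapped in vehicle fins and not in TCDD fins, with differences of -0.76 ± 0.25 in TCDD fins (adjusted p = 0.043) and -0.35 ± 0.25 in vehicle fins (adjusted p = 0.38). The TCDD call of hspa5 was lost with any 1 of 8 arrays left out (adjusted p up to 0.18).

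Of the 6 ER falls in TCDD fins, those of 2 J-domain partners of BiP, dnajc1 and dnajc3a, held with each array left out. The other 4 did not, among them that of dnajb11, a further co-chaperone of BiP (-0.75, adjusted p = 0.029, up to 0.14). dnajc1, of the ER membrane, had 9.61, 9.44 and 9.71 at 1 dpa, 8.90, 8.89 and 9.19 at 3 dpa and 8.75, 8.72 and 9.02 at 5 dpa in TCDD fins. In vehicle fins it had 9.30, 9.45 and 9.58 at 1 dpa, 9.43, 9.20 and 9.35 at 3 dpa and 9.09, 9.01 and 9.13 at 5 dpa. It fell by 0.76 ± 0.13 in TCDD fins (adjusted p = 0.00074), beside a difference of -0.36 ± 0.13 in vehicle fins (adjusted p = 0.058), and in the F test between days its adjusted p was 0.38. dnajc3a, which encodes P58IPK, a lumenal partner of BiP that in mammals also restrains the kinase PERK, fell by 0.83 ± 0.17 in TCDD fins (adjusted p = 0.0038), beside -0.12 ± 0.17 in vehicle fins (adjusted p = 0.68, F test between days 0.37).

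Among the lectin chaperones and disulfide isomerases, canx passed. canx, which encodes calnexin, fell by 0.61 ± 0.20 in TCDD fins (adjusted p = 0.043, lost with any 1 of 9 arrays left out), beside -0.54 ± 0.20 in vehicle fins (adjusted p = 0.082, and 0.0057 in the letter block). calr, which encodes calreticulin, differed by 0.27 ± 0.48 in TCDD fins and 0.18 ± 0.48 in vehicle fins, with 95% intervals of -0.75 to 1.29 and -0.84 to 1.19 that leave its course unresolved, and in the letter block its vehicle difference was -0.03. calr3a of the same family differed by -0.13 ± 0.14 and -0.18 ± 0.14. The isomerase genes pdia4 (-0.46 ± 0.18 and -0.49 ± 0.18) and pdia6 (-0.33 ± 0.36 and -0.29 ± 0.36) did not pass in either course, with pdia4 at an adjusted p of 0.021 for TCDD in the letter block. dnajb12a, an ER membrane J-domain protein that faces the cytosol, differed by -0.26 ± 0.18 in TCDD fins and fell by 0.65 ± 0.18 in vehicle fins (adjusted p = 0.024, lost without replicate B or D of 1 dpa or A or B of 5 dpa).

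pdia7 stood highest at 3 dpa in vehicle fins. In TCDD fins it had 9.29, 9.13 and 9.47 at 1 dpa, 9.60, 9.65 and 9.71 at 3 dpa and 9.32, 9.73 and 10.19 at 5 dpa, with overlap between the later days. In vehicle fins it had 9.33, 9.67 and 9.65 at 1 dpa, 10.22, 10.10 and 10.18 at 3 dpa and 9.43, 9.30 and 9.25 at 5 dpa, so that the 3 arrays of 3 dpa stood above the other 6. The vehicle rise between 1 and 3 dpa was 0.61 ± 0.17 (adjusted p = 0.049) and was lost with any 1 of 16 arrays left out (adjusted p up to 0.15). The second probe set of pdia7 had 0.71 on that step (adjusted p = 0.097). The following step was -0.84 ± 0.17 (adjusted p = 0.0502, and 0.012 in the letter block), and the F test between days gave an adjusted p of 0.28.

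**Figure D5:**
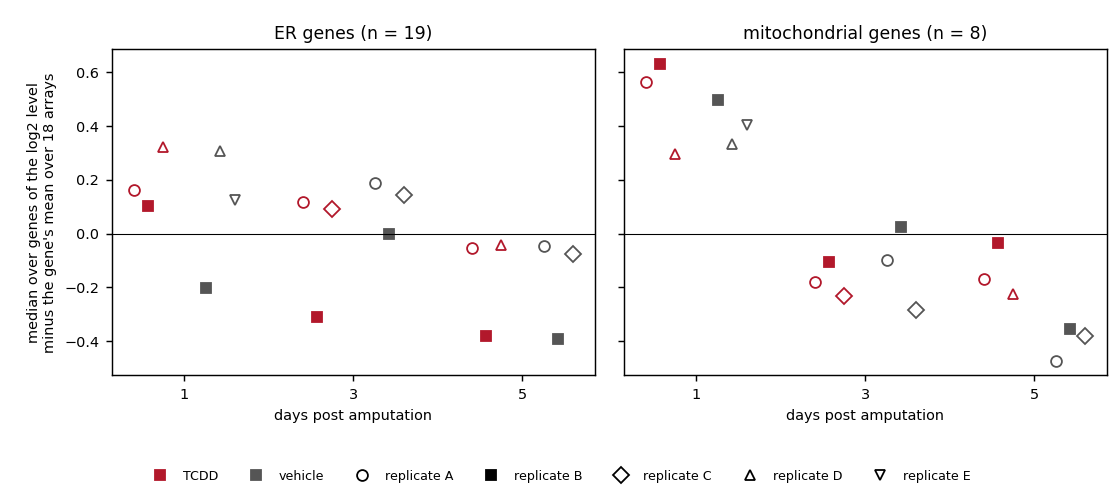
Median over genes of the log2 level less the gene's mean over 18 arrays, for the 19 ER genes (left) and the 8 mitochondrial genes (right), on each array by days post amputation; red is TCDD, grey is vehicle, and filled squares are replicate B. In each group the letter B array is the lowest for the ER genes, while the mitochondrial genes are highest at 1 dpa in both exposures.

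Within groups, ER genes varied with the replicate letter, and so in part did other sub-lists. On each of the 6 letter B arrays the median deviation of the 19 ER genes from their group means was below 0, from -0.31 to -0.10, with 16 to 18 of the 19 below. On the 12 other arrays it was above 0, from 0.045 to 0.26, which the 3 deviations of a group, summing to 0 for each gene, partly impose. On the B arrays, the same median for CCT genes ran from -0.23 to 0.055, below 0 on 5 of 6. CCT genes were also below 0 on the 3 C arrays, and above 0 on the 5 A arrays. Small heat shock, cytosolic Hsp70 and J-domain genes were below 0 on 5, 4 and 3 of the 6 B arrays. Over all members, ER genes included, the B medians ran from -0.10 to -0.0069. Mitochondrial genes on the B arrays were at 0.013 to 0.17, and thus not low with the ER genes. The GAPDH 3' minus 5' difference was 2.05 to 3.03 on the B arrays, 1.38 to 4.06 on the C arrays, 1.74 to 2.29 on the A arrays and 1.50 to 1.69 on the D arrays. For actin it was 1.45 to 1.98, 1.63 to 2.24, 1.66 to 2.21 and 1.58 to 1.97 on the B, C, A and D arrays. What the letters mean is not given in the labels, and the part of the letter and of RNA quality in the levels of the sub-lists was not tested. The median SD of an ER gene within a group was 0.26. It was 0.29 for small heat shock, 0.23 for mitochondrial, 0.21 for CCT, 0.18 for J-domain and 0.13 for cytosolic Hsp70 genes. The widest SD of an ER gene, 1.02, was that of calr in TCDD fins at 1 dpa, where replicate B had 7.15 and the others 9.08 and 8.69.

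Other genes of folding and of the stress responses, from a list of 74 drawn up by function, were measured for 54. TCDD lowered 2 of the 54 at 3 dpa, or 3.7%, where 0.729% of all probe sets were lower. None passed at 1 and 5 dpa. In the mean of the days 3 were lower, or 5.56%, where 2.08% of all probe sets were. In the letter block 6 were lower at 3 dpa, where 1.87% of all probe sets were. The block gave 0 at 1 dpa and 5 lower at 5 dpa, where 28 and 271 of all 15502 were lower. For the mean of the days it gave 7 lower and 1 higher, where 534 and 529 of all were. At an unadjusted p under 0.05 there were 3 and 7 of the 54 at 1 and 5 dpa, beside 8.01% and 17.6% of all. The 2 genes lower at 3 dpa were serp1, an ER membrane protein that guards new proteins at the translocon (-0.66 ± 0.12, adjusted p = 0.017), and txndc5, a disulfide isomerase (-0.51 ± 0.10, adjusted p = 0.028). In the mean of the days both passed again (-0.34 and -0.27), with fkbp10b, an ER isomerase that folds collagen (-0.71 ± 0.14, adjusted p = 0.0080). From 1 to 5 dpa 12 of the 54 fell and 2 rose in TCDD fins (22.2% and 3.7%, beside 11.3% and 7.81% of all probe sets). In vehicle fins 13 fell and 2 rose (24.1% and 3.7%, beside 10.1% and 7.22%). With the letter block 18 fell and 6 rose in TCDD fins, beside 16.2% and 11.7% of all probe sets. It gave 9 and 5 in vehicle fins, beside 8.44% and 6.46%. Those that fell in both courses included trap1, the mitochondrial Hsp90 (-1.18 ± 0.16 and -1.14 ± 0.16, adjusted p = 0.00018 and 0.00021), tcp1, a further CCT subunit (-0.68 and -0.64), the prefoldin subunit genes pfdn2, pfdn4 and pfdn5, whose products hand actin and tubulin to CCT, and hyou1, an exchange factor of BiP (-0.69 and -0.53). fkbp10b rose in both (1.20 ± 0.24 and 1.68 ± 0.24, adjusted p = 0.0028 and 0.00028).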

How the data were processed

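Regenerating fin RNA was measured on 18 arrays, 3 in each of 6 groups set by the labels. Each deposited value is a linear intensity of 1 probe set. Per the submitters' processing notes the authors ran GCRMA, in a version not given in the sources used here. Of 15617 probe sets, 115 controls were left out. Platform annotation gave 10795 probe sets 1 symbol, 135 several and 4572 none; no gene was named from a set with several. The symbols of all 63 members stood in the RefSeq gene table. Members, sub-lists and other lists were chosen with earlier results of these data known.

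Values were analysed as log2(intensity + 1), which understates fold changes of dim genes. A model of the 6 group means was fitted by limma (version 3.58.1, R 4.3.3, eBayes, trend on), two-sided, with Benjamini-Hochberg adjustment over 15502 probe sets and a threshold of 0.05. The fit was tested on simulated arrays drawn independently, without a letter effect, so that test cannot show how pairing by letter affects the fit. Every adjusted p comes from limma, and errors beside differences are its SE. Contrasts were TCDD minus vehicle on each day and in the mean of the days, the steps between days in each exposure, and an F test between days. Named genes were, in each sub-list and contrast, up to 3 that passed with the largest difference in each direction, the member with the highest mean level, and a set of well-known chaperone genes. The genes hspa4b, hspbp1, hspb6, dnajc30b, dnajb11, cct2, cct5 and the companion genes were added after their values were seen.

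Arrays of a day with the same letter deviated together from their group means (correlation above 0.1 in 7 of 7 pairs, median 0.57), against 2 of 20 pairs with different letters (median -0.17), so that letters pair the arrays. Blocked values stand beside counts and several of the results whose call they change. Alternatives were another pseudocount, quantile normalization, median centring, a filter on dim probe sets, a constant prior, the block, only the compared groups, the mean of a gene's probe sets and leaving out arrays. Nothing says whether pools were made on separate days. Sequences were not used here. Plots came from matplotlib 3.10.9 (Python 3.11.15).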

Additional observations from a re-analysis of the deposited data

How the results depend on the processing

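None of the named calls of the 63 genes changed direction under the alternatives run on them. Among the marker counts, that of epidermal markers from 1 to 5 dpa in vehicle fins went from 2 lower to 1 higher in the letter block. Among all members' differences, 55 of 630 changed sign in the letter block, none of which passed in either fit. At 3 dpa the count of genes lower with TCDD was 0 without dim probe sets, 2 with the letter as a replicate block and 0 without both letter C arrays of that day, against 1. In the mean of the days it was 0 without dim probe sets, against 1, since the filter removes hspb8. For the vehicle step from 1 to 3 dpa the count of 8 was 1 with only the compared groups in the fit and 2 without both letter C arrays. For the vehicle step from 3 to 5 dpa the count of 1 was 2 with a pseudocount of 16, with a constant prior and without both letter C arrays, 6 with the replicate block and 0 with only the compared groups. For the TCDD step from 1 to 3 dpa the count of 14 was 25 with the replicate block and 6 with only the compared groups. With each array left out in turn, counts stayed at 0 for TCDD at 1 and 5 dpa, for the F test and for the TCDD step from 3 to 5 dpa, and at 1 for TCDD at 3 dpa and in the mean of the days. They ran from 1 to 8 and from 1 to 2 for the vehicle steps, from 12 to 22 for vehicle between 1 and 5 dpa, and from 10 to 15 and 16 to 25 for TCDD between 1 and 3 and between 1 and 5 dpa. Fits on fewer arrays have fewer residual degrees of freedom; the cause of the other changes was not tested. Dim genes, 10 of the 63, have little signal over background.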
